A study of Mus musculus with 9 samples.

Results

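Fatty acid uptake and oxidation was followed through 31 genes, from the entry of fatty acids into the muscle fibre to the transfer of electrons to the respiratory chain, in the white gastrocnemius of mice without acid alpha-glucosidase. The genes were chosen by symbol from what they encode, by a rule that uses no measured value, out of 18062 genes in the deposited table, and all 31 were found. The choice was made with earlier results of these data known. The mice came in these groups: GAA knock-out mice of 5 months (5 libraries), wild-type mice of 5 months (2 libraries) and wild-type mice of 6 months (2 libraries), all of mixed background (BL6/129j). The knock-out disrupts exon 6 of Gaa, with loxP sites in introns 5 and 6, and the colony was kept inbred by mating siblings for more than 20 generations. The 4 wild-type columns (wt1 to wt4) show no age, so both ages formed 1 wild-type arm, and age cannot be told apart from the spread within it. The labels give neither sex nor litter and do not tie libraries to named mice, so the tests speak only to how these libraries vary. The enzyme breaks down glycogen in lysosomes, and people who lack it have Pompe disease, in which glycogen builds up in muscle.

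Muscle burns long-chain fatty acids in its mitochondria. They are freed from lipoproteins by lipoprotein lipase, taken up with the help of CD36, bound by FABP3, linked to coenzyme A and passed across the mitochondrial membranes as carnitine esters. Inside, each turn of beta-oxidation removes an acetyl unit in a dehydrogenation, a hydration, another dehydrogenation and a thiolysis, and the electrons of the first step reach the respiratory chain through the electron transfer flavoprotein. The white gastrocnemius consists mainly of fast glycolytic fibres, which rely on this pathway less than slow oxidative fibres do. Nuclear receptors of the PPAR family, with fatty acids as ligands, switch on many of these genes.

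These libraries had the Gaa level that their labels call for, 3.11 to 3.64 RPKM (reads scaled to transcript length in kilobases and to the number of mapped reads) in knock-out muscle and 46.01 to 56.0 RPKM in wild-type muscle (exact two-sided permutation p = 0.0079, the smallest that 126 splits can give). Depth was estimated from the step that a single read makes in the low values: for each RPKM and kilobase there were about 17.6 to 37.1 reads in a knock-out library and 36.9 to 64.4 in a wild-type library. Of the 31 genes, 19 had at least 1000 estimated reads in every library, and the lowest was Ehhadh with 66 in ko3. Skeletal muscle markers made up 32.4% to 34.4% of the RPKM total in knock-out muscle and 33.2% to 34.7% in wild-type muscle, and of these 15 genes 5 were higher and none lower (1 lower at an unadjusted p below 0.05, and 2 higher and 2 lower with centring), with Des at 2369 ± 133 in knock-out and 1205 ± 161 RPKM in wild-type muscle and Tnnt3, the most abundant, at 16977 ± 1569 in knock-out and 16963 ± 821 RPKM in wild-type muscle. The other higher muscle markers with the smallest p were Myh2, Mybpc2 and Ckm, with log2 fold changes of 1.25, 0.34 and 0.30. With centring Myh2 still passed (limma adjusted p = 6.2e-04), whereas Mybpc2 and Ckm did not (0.12 and 0.17). Across all genes tested, 37.0% were higher and 14.8% lower (25.1% and 24.9% with centring). Over all 11032 genes tested, the median log2 fold change was 0.12. For that reason the counts of members are given as deposited and after each library was centred on the median of its log2 ratios to the gene means. Other values are as deposited unless centring is named.

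The main pattern was how little these 31 genes differed between the genotypes. As deposited, 8 of the 31 genes rose, none fell, and 23 did not pass the threshold (limma, Benjamini-Hochberg adjusted p below 0.05 over all genes). At an unadjusted p below 0.05, 1 member was lower (Etfa) and 11 were higher. So 25.8% of the members were called higher, beside 37.0% of all genes tested, and 0% lower, beside 14.8%. Calls in either direction covered 51.8% of all genes as deposited and 49.9% with centring. With centred libraries, 1 member was higher and 3 were lower, beside 25.1% and 24.9% of all genes, and the only call shared by both scalings was Acaa2. No member reached an absolute log2 fold change of 0.5 (1.41-fold) on either scale, a size seen in 22.4% of all genes as deposited and in 20.8% with centring. Among the 3255 genes with a mean of at least 10 RPKM, where 25 of the members belong, the share was 21.3% as deposited. The members' log2 fold changes ran from -0.23 to 0.49 with a median of 0.06, against a median of 0.12 for all genes tested. With centring they ran from -0.36 to 0.36 with a median of -0.07, against -0.003 for all genes.

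The 95% interval of the fold change lay wholly inside an absolute log2 change of 0.5 for 23 members as deposited and for 26 with centring. As deposited, the intervals of Cd36, Fabp3, Cpt1a, Acaa2, Mlycd, Ehhadh, Ppara and Acot2 reached beyond it, so changes of that size were not bounded for these genes. With centring the intervals that did so were those of Acaa2, Mlycd, Ehhadh, Ppara and Acot2. All 5 knock-out values lay above all 4 wild-type values for 3 members (Hadha, Hadhb and Acaa2) and below them for 1 (Etfa), beside 30.9% and 11.4% of all genes. With centring 1 member lay above (Acaa2) and 4 below (Acadm, Echs1, Etfa and Etfdh), beside 20.9% and 19.8%.

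**Figure D1:**
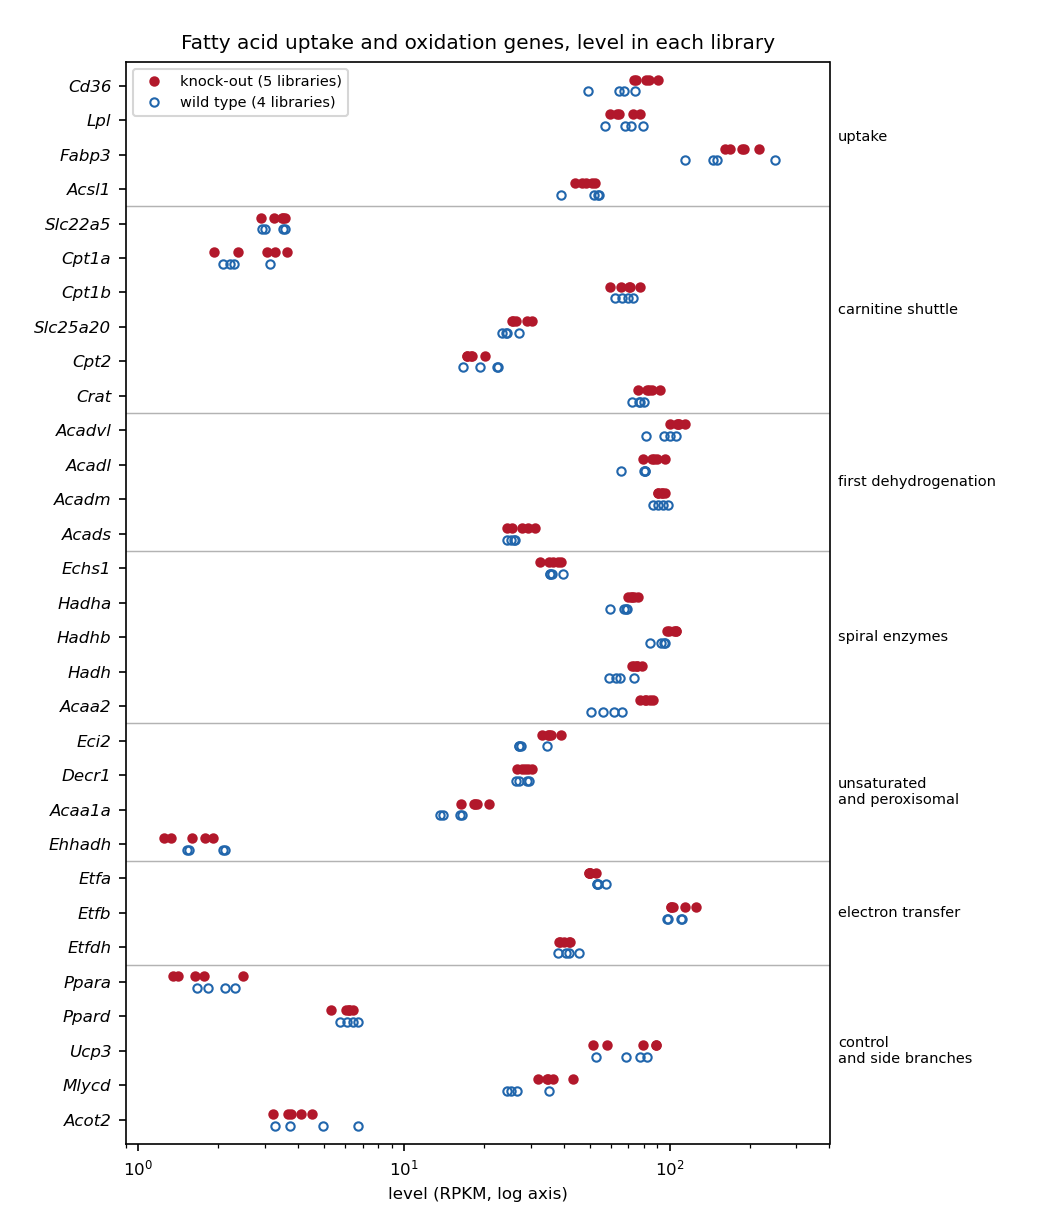
Level of each of the 31 genes (RPKM, log axis) in every library, grouped by role, with knock-out libraries as filled red points above and wild-type libraries as open blue points below. Most pairs of rows overlap, while the 5 knock-out values of Acaa2 (77.4 to 86.9) lie above its 4 wild-type values (50.8 to 66.1).

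**Figure D2:**
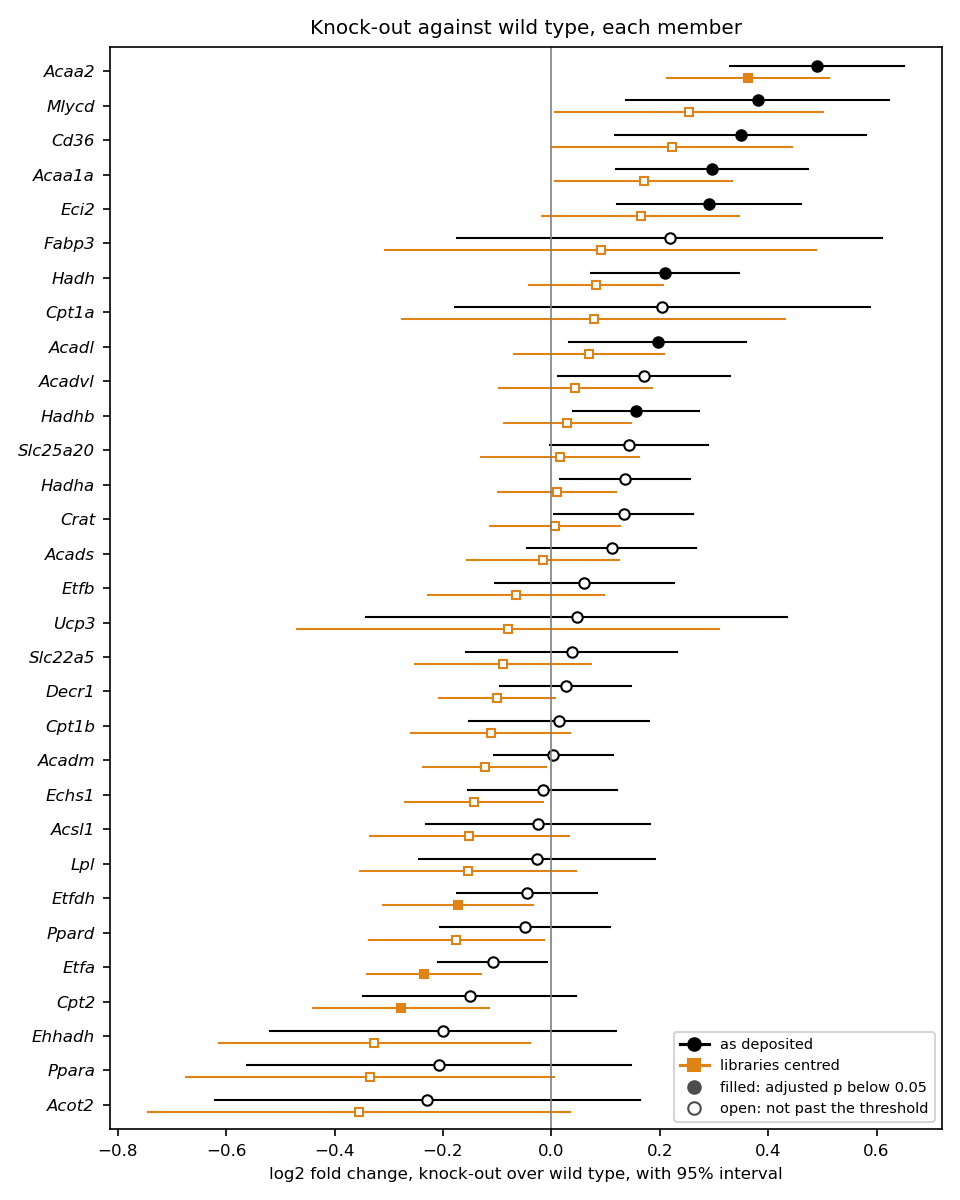
Log2 fold change of each gene, knock-out over wild type, with its 95% interval, as deposited (black circles) and with centred libraries (orange squares), where filled symbols passed an adjusted p of 0.05. As deposited 8 genes passed, all higher, and with centring 1 higher (Acaa2) and 3 lower (Etfdh, Etfa and Cpt2).

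One wild-type library carried weight in these comparisons. The library wt2 was the lowest of the 4 wild-type values for 27 of 31 members, where it was lowest for 35.8% of all genes tested, and the lowest of all 9 libraries for 19 members. The levels of the 31 genes summed to 1351 RPKM in wt2 and to 1691, 1582 and 1531 RPKM in wt1, wt3 and wt4, and to 1592 to 1756 RPKM in knock-out muscle. Without wt2, 5 members were called higher and 1 lower as deposited, and 1 higher and 5 lower with centring. Centred, wt2 was the lowest wild-type library for 17 members. Without wt1, 5 members were called higher with centring in place of 1. For the counts without a library and for the centred rank of wt2, the shares of all genes are not given here. Those counts are therefore not read as particular to the members.

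Promoter windows are shown for 5 members, from 250 bases before to 50 bases after the annotated start (RefSeq, build GRCm38.p6). These windows were chosen because they differ in the motifs that they hold. Windows of 26 of the 31 genes were matched by symbol. Capitals mark AGGTCA, the core letters read by PPARs and related nuclear receptors, in Acadm, Cd36 and Ucp3. They mark the GC box GGGCGG in Hadhb and the CCAAT box in Mlycd. All were searched by exact match on both strands. The window of Hadhb (chr5:30155003-30155302, plus strand) overlaps that of Hadha, which is read from the other strand, by 228 bases. The others are Acadm (chr3:153944594-153944893, minus strand), Cd36 (chr5:17835847-17836146, minus strand), Ucp3 (chr7:100472741-100473040, plus strand) and Mlycd (chr8:119394644-119394943, plus strand). The window of Cd36 also holds 2 GGGCGG and 1 CCAAT, left in lower case, while each of the others holds only the motif marked in it. No matches overlap in these windows, and 2 of the CCAAT boxes of Mlycd adjoin.
Hadhb: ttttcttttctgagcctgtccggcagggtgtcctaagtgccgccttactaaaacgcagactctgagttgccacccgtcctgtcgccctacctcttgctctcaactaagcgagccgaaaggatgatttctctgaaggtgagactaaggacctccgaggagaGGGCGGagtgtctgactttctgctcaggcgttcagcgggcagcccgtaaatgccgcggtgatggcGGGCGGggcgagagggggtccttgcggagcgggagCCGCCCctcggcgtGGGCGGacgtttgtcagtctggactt
Acadm: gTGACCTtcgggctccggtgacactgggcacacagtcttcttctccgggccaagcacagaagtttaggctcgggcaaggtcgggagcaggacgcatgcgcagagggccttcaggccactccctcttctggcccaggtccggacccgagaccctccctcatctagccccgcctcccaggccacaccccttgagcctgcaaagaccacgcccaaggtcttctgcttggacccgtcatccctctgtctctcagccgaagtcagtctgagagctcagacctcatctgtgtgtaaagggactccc
Cd36: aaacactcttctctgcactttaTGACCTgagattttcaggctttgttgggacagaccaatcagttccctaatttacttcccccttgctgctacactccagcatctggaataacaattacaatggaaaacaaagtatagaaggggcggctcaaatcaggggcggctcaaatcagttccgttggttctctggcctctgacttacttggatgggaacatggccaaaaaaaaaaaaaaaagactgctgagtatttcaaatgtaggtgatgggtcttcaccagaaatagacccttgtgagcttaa
Ucp3: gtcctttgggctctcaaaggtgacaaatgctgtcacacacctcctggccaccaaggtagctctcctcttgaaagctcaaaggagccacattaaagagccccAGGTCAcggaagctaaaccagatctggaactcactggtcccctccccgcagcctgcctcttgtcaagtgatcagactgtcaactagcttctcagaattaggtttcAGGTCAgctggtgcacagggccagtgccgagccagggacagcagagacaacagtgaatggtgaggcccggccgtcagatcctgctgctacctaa
Mlycd: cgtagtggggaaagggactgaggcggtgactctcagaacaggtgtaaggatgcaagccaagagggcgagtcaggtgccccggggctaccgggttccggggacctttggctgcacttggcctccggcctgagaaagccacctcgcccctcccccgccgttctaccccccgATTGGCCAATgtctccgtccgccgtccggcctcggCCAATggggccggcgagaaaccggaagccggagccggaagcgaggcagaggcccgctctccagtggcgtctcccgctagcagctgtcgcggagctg

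AGGTCA was found in the windows of 6 of 26 members (Acadm, Acadvl, Cd36, Cpt1a, Echs1 and Ucp3) and in 16.3% of all 32851 promoter windows. Of these 6 genes, 1 (Cd36) was called higher, and their median log2 fold change was 0.11, beside 6 of 20 called and a median of 0.09 for the members without it. GGGCGG was found in 19 of 26 members and in 35.7% of all windows, and CCAAT in 13 of 26 and in 37.4%. A match in a window describes its letters and is not evidence of binding.

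Uptake and activation came first in the pathway, and 1 of 4 members passed as deposited. Cd36, the fatty acid translocase of the cell surface, had 74.8, 73.4, 83.5, 90.3 and 81.3 RPKM in ko1 to ko5, against 67.3, 49.4, 64.3 and 74.2 RPKM in wt1 to wt4. The groups overlapped only where wt4 exceeded ko2. The log2 fold change was 0.35 (95% interval 0.12 to 0.58, adjusted p = 0.016), and 0.22 with centring (adjusted p = 0.087). Without wt2 it was 0.23 (adjusted p = 0.0325).

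Cd36 was summed from 5 transcript lines, and one of them parted the genotypes. The line most abundant in knock-out muscle had 27.4, 24.2, 28.0, 36.3 and 29.8 RPKM in ko1 to ko5, against 13.9, 9.29, 12.9 and 12.3 RPKM in wt1 to wt4, with no overlap. It held 36.1% of the knock-out level of Cd36 and 19.0% of the wild-type level. The next lines averaged 24.0 ± 1.22 RPKM in knock-out muscle and 21.9 ± 4.88 in wild-type muscle, and 17.3 ± 3.23 in knock-out and 16.9 ± 2.66 RPKM in wild-type muscle (SD, n = 5 and n = 4). The other two averaged 6.92 ± 0.995 RPKM in knock-out muscle and 9.39 ± 1.74 in wild-type muscle, and 3.39 ± 0.377 in knock-out and 3.49 ± 0.889 in wild-type muscle. This line was singled out after its values were seen and was not tested. How reads common to several transcripts were divided is not stated, so the level of one line is less certain than their sum. With only the transcript of highest mean kept for each gene, which is the next line, the log2 fold change of Cd36 was 0.15 (adjusted p = 0.33).

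Cd36 is also expressed by macrophages, endothelial cells and adipocytes, whose markers moved with genotype. For comparison, 37.0% of all genes tested were higher and 14.8% lower (25.1% and 24.9% with centring). Macrophage markers were higher in 15 of 18 measured genes and lower in none, and their levels summed to 92.1 to 156 RPKM in knock-out muscle and 39.7 to 52.1 RPKM in wild-type muscle. Cd68, a macrophage glycoprotein, averaged 6.82 ± 0.969 RPKM in knock-out muscle and 0.865 ± 0.268 in wild-type muscle, and Lyz2, the most abundant marker, 36.7 ± 10.6 in knock-out and 14.4 ± 2.24 in wild-type muscle. Mpeg1, Trem2 and Ctss were the other macrophage markers with the smallest p-values, at 1.92, 1.26 and 6.38 RPKM in knock-out muscle and 0.382, 0.194 and 1.82 in wild-type muscle. Endothelial markers went the other way: 11 of 17 measured genes were lower and none higher (14 and 0 with centring). Their levels summed to 43.2 to 76.0 RPKM in knock-out muscle and 59.9 to 97.7 in wild-type muscle. Sox18, Flt1, Ptprb and Esam had the smallest p-values, with log2 fold changes of -1.12, -0.93, -0.87 and -0.70. Pecam1, the most abundant, averaged 8.22 ± 1.92 RPKM in knock-out muscle and 10.4 ± 2.73 in wild-type muscle (adjusted p = 0.15, and 0.037 with centring). Red blood cell genes were lower in 5 of 5 measured, with sums of 138 to 225 RPKM in knock-out muscle and 266 to 291 in wild-type muscle. Alas2, Hbb-b1, Hba-a1 (the most abundant) and Hba-a2 had the smallest p-values, with log2 fold changes of -0.72, -0.74, -0.55 and -0.51. None of these lists had a marker at 0 in every library, and their part in the Cd36 result was not tested. In bulk muscle, fewer cells of a type and less RNA per cell cannot be told apart.

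Lpl, lipoprotein lipase, had 59.5, 63.5, 64.6, 73.0 and 77.2 RPKM in ko1 to ko5, against 71.7, 57.1, 79.3 and 67.8 RPKM in wt1 to wt4. The ranges overlapped widely, and the log2 fold change was -0.03 (95% interval -0.24 to 0.19). Fabp3, the fatty acid binding protein of muscle and heart, was the most abundant member at 185 ± 21.6 RPKM in knock-out muscle and 165 ± 58.8 RPKM in wild-type muscle. Its wild-type values were the most scattered of all members: 250, 115, 150 and 146 RPKM in wt1 to wt4, around knock-out values of 161 to 217. Its log2 fold change was 0.22 (adjusted p = 0.33), 0.44 without wt1 (adjusted p = 0.0076) and 0.06 without wt2 (adjusted p = 0.78). With any library other than wt1 left out, the adjusted p was 0.28 to 0.78. Acsl1, the main long-chain acyl-CoA synthetase of muscle, averaged 48.6 ± 3.25 RPKM in knock-out muscle and 49.7 ± 7.19 in wild-type muscle, and wt2 (39.0) was below all other values.

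Around these members, the rest of the uptake machinery held calls in both directions. Of 20 other uptake, binding and activation genes measured, 6 were higher and 4 lower (6 and 6 with centring), with a median of 0.04. Those counts lie near the shares of all genes, 37.0% higher and 14.8% lower (25.1% and 24.9% with centring). Acsl6, another acyl-CoA synthetase, averaged 17.2 ± 0.725 RPKM in knock-out muscle and 11.1 ± 0.969 in wild-type muscle (log2 fold change 0.62, adjusted p = 1.4e-05). Slc27a4, a fatty acid transport protein, averaged 2.67 and 1.68 RPKM, and Lmf1, which matures lipoprotein lipase, 4.94 and 2.94 RPKM, in knock-out muscle and the wild type. Vldlr, the receptor of very-low-density lipoprotein, fell to 36.0 ± 2.93 RPKM in knock-out muscle, against 48.4 ± 3.46 in wild-type muscle. Fabp4, the most abundant gene of the list and an adipocyte and endothelial protein, averaged 151 ± 23.1 in knock-out and 178 ± 26.1 RPKM in wild-type muscle (adjusted p = 0.12, and 0.018 with centring).

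Partners of lipoprotein lipase differed while Lpl itself did not pass the threshold. Angptl4, a secreted inhibitor of the lipase and a PPAR target, had 2.27, 5.28, 2.55, 5.28 and 5.42 RPKM in ko1 to ko5, against 1.93, 0.804, 1.71 and 2.52 RPKM in wt1 to wt4. The value of ko1 lay within the wild-type range and that of ko3 just above it, and the log2 fold change was 1.21 (adjusted p = 0.01). Gpihbp1, which anchors the lipase on capillary endothelium, was at 9.75, 13.4, 6.72, 9.71 and 9.43 RPKM in ko1 to ko5, against 10.6, 13.2, 16.8 and 14.5 RPKM in wt1 to wt4. The log2 fold change was -0.50 (adjusted p = 0.031), beside the endothelial markers given above. Both genes were named after their values were seen.

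The carnitine shuttle carries acyl groups into the mitochondrion, and none of its 6 members passed as deposited (1, Crat, had an unadjusted p below 0.05). Cpt1b, the muscle form of the rate-limiting carnitine palmitoyltransferase, had 65.7, 77.4, 59.5, 70.4 and 70.9 RPKM in ko1 to ko5, against 70.0, 62.3, 73.0 and 66.4 RPKM in wt1 to wt4. Its log2 fold change was 0.01 (95% interval -0.15 to 0.18), turning to -0.11 with centring and -0.19 with quantile normalization (adjusted p = 0.038). Cpt1a, the liver form, was far lower at 2.85 ± 0.686 RPKM in knock-out muscle and 2.43 ± 0.474 RPKM in wild-type muscle (adjusted p = 0.35). Within a library, Cpt1b was 21.3 to 33.9 times the level of Cpt1a in knock-out muscle and 21.2 to 33.0 times in wild-type muscle, so the balance of the isoforms overlapped.

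Cpt2, which re-forms acyl-CoA on the inner side of the membrane, had 17.3, 20.3, 17.3, 17.9 and 18.0 RPKM in ko1 to ko5, against 19.3, 16.8, 22.4 and 22.6 RPKM in wt1 to wt4. As deposited the log2 fold change was -0.15 (adjusted p = 0.18), and -0.24 without wt2 (adjusted p = 0.025). The adjusted p was 0.10 to 0.42 with any other library left out. With centring the log2 fold change was -0.28 (95% interval -0.44 to -0.12, adjusted p = 0.0086), so Cpt2 fell relative to the median gene. Slc25a20, the exchanger of carnitine and acylcarnitine, averaged 27.4 ± 2.13 RPKM in knock-out muscle and 24.8 ± 1.55 in wild-type muscle. Its adjusted p was 0.091, 0.045 without wt1, and 0.070 to 0.22 with any other library left out. Crat, carnitine acetyltransferase, averaged 84.2 ± 5.79 in knock-out and 76.7 ± 3.14 RPKM in wild-type muscle, and with centring its log2 fold change was 0.01. Its adjusted p was 0.076, 0.025 without ko3, and 0.073 to 0.20 with any other library left out. Slc22a5, the carnitine importer of the cell membrane, had 2.89, 3.49, 3.51, 3.26 and 3.58 RPKM in ko1 to ko5, against 3.004, 2.93, 3.52 and 3.58 RPKM in wt1 to wt4. Those ranges coincided almost fully, with a log2 fold change of 0.04 as deposited and -0.09 with centring.

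Acyl-CoA dehydrogenases take the first step of each turn, with one enzyme for each range of chain length. Acadl, for long chains, was the one of 4 called as deposited, with 79.4, 96.4, 86.3, 87.7 and 89.9 RPKM in ko1 to ko5, against 80.5, 65.9, 80.6 and 80.5 RPKM in wt1 to wt4. Only ko1 fell among the wild-type values, and wt2 stood below the rest. The log2 fold change of 0.20 (adjusted p = 0.044) became 0.12 without wt2 (adjusted p = 0.14) and 0.07 with centring (adjusted p = 0.38). It also missed the threshold without ko2, ko3, ko4 or ko5, at adjusted p of 0.061 to 0.093.

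Acadvl, for very long chains, averaged 107 ± 4.85 RPKM in knock-out muscle and 95.8 ± 10.3 in wild-type muscle. Its adjusted p was 0.066, 0.029 without wt3, and 0.055 to 0.21 with any other library left out. Acadm, for medium chains, had 93.5, 90.4, 90.6, 95.8 and 94.0 RPKM in ko1 to ko5, against 94.8, 86.5, 98.9 and 90.7 RPKM in wt1 to wt4. These overlapped closely as deposited, and the log2 fold change was 0.004 (95% interval -0.11 to 0.11). It was -0.12 with centring (adjusted p = 0.067) and -0.23 with quantile normalization (adjusted p = 0.0024). Acads, for short chains, had 25.5, 31.1, 24.4, 29.3 and 27.8 RPKM in ko1 to ko5, against 26.2, 24.4, 26.0 and 25.3 RPKM in wt1 to wt4. The knock-out values enclosed the narrow wild-type range, and the log2 fold change was 0.11 as deposited and -0.02 with centring.

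Later steps of the spiral held the one change that both scalings called. Acaa2, the mitochondrial 3-ketoacyl-CoA thiolase that cleaves off acetyl-CoA, had 84.6, 86.9, 77.4, 80.6 and 81.2 RPKM in ko1 to ko5, against 61.9, 50.8, 66.1 and 56.0 RPKM in wt1 to wt4. All knock-out values exceeded all wild-type values, and the means were 82.1 ± 3.70 in knock-out and 58.7 ± 6.72 RPKM in wild-type muscle (SD, n = 5 and n = 4), a level 39.9% higher in knock-out muscle. Its log2 fold change was 0.49 (SE 0.07, 95% interval 0.33 to 0.65, adjusted p = 1.9e-04), and 0.36 with centring (95% interval 0.21 to 0.51, adjusted p = 0.001). Over 17 other settings its log2 fold change ran from 0.29 to 0.55 with a highest adjusted p of 0.0057.

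Acaa2 parted from its neighbours in the pathway within each library. Its level was 0.730 to 0.891 times that of Hadhb in knock-out muscle and 0.584 to 0.693 times in wild-type muscle, with no overlap. Against Acadm the ratios were 0.841 to 0.961 in knock-out muscle and 0.588 to 0.669 in wild-type muscle. These ratios within a library do not depend on how libraries are scaled. They were computed after the fold changes were seen and are given without a test.

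Hadha and Hadhb encode the alpha and beta subunits of the mitochondrial trifunctional protein, which hydrates, dehydrogenates and cleaves long-chain intermediates. Hadha had 69.8, 76.3, 72.1, 71.7 and 73.5 RPKM in ko1 to ko5, against 69.1, 59.7, 68.8 and 67.2 RPKM in wt1 to wt4. Hadhb had 99.7, 97.6, 106, 104 and 106 RPKM in ko1 to ko5, against 92.7, 84.4, 95.5 and 95.9 RPKM in wt1 to wt4. Neither gene's groups overlapped, but the gaps were small: the log2 fold changes were 0.14 for Hadha (adjusted p = 0.054) and 0.16 for Hadhb (adjusted p = 0.028), and 0.01 and 0.03 with centring. Hadhb missed the threshold without ko3, ko4, ko5, wt1 or wt2, at adjusted p of 0.051 to 0.0999. The head-to-head genes kept a level of Hadhb that was 1.28 to 1.47 times that of Hadha in knock-out muscle and 1.34 to 1.43 times in wild-type muscle.

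Hadh, the dehydrogenase for medium and short chains, had 75.7, 78.5, 72.4, 73.4 and 75.3 RPKM in ko1 to ko5, against 65.3, 59.1, 73.5 and 62.6 RPKM in wt1 to wt4. The groups overlapped only through wt3, and the log2 fold change was 0.21 (adjusted p = 0.015), or 0.08 with centring (adjusted p = 0.24). Without wt2 the adjusted p was 0.053. Echs1, the short-chain enoyl-CoA hydratase, averaged 36.3 ± 2.60 RPKM in knock-out muscle and 36.7 ± 1.97 in wild-type muscle (log2 fold change -0.02, 95% interval -0.15 to 0.12). With quantile normalization its log2 fold change was -0.16 (adjusted p = 0.036).

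**Figure D3:**
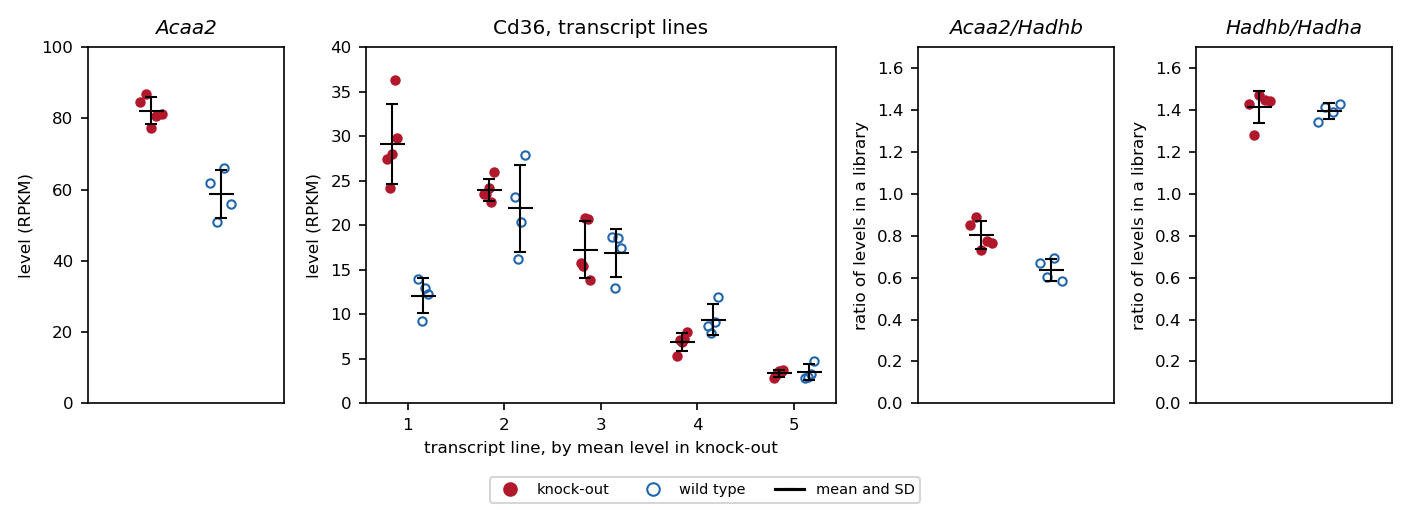
Values in each library (points) with mean and SD (bars) for the level of Acaa2, the 5 Cd36 transcript lines, and the ratios Acaa2/Hadhb and Hadhb/Hadha within a library, with knock-out left of wild type. Acaa2, the first Cd36 line and Acaa2/Hadhb part the genotypes, whereas Hadhb/Hadha overlaps (1.28 to 1.47 in knock-out muscle and 1.34 to 1.43 in wild-type muscle).

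Enzymes for unsaturated and peroxisomal substrates gave 2 of the calls as deposited. Eci2, an enoyl-CoA isomerase of peroxisomes and mitochondria, had 33.1, 35.8, 35.03, 38.9 and 34.8 RPKM in ko1 to ko5, against 34.5, 27.1, 27.2 and 27.6 RPKM in wt1 to wt4. The wild-type library wt1 lay inside the knock-out range and the others below it, and the log2 fold change was 0.29 (adjusted p = 0.0083), or 0.16 with centring (adjusted p = 0.12). The call ended with only its highest transcript kept (adjusted p = 0.086). Acaa1a, the peroxisomal thiolase, had 18.4, 20.9, 16.4, 18.8 and 18.5 RPKM in ko1 to ko5, against 16.3, 13.7, 16.5 and 14.0 RPKM in wt1 to wt4. Only ko3 came down to the top of the wild type, with a log2 fold change of 0.30 (adjusted p = 0.0093), or 0.17 with centring (adjusted p = 0.078). Its near-copy Acaa1b was at most 0.0902 RPKM in any library, and how reads common to both genes were assigned is not stated.

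Decr1, the dienoyl-CoA reductase, had 26.7, 28.6, 27.9, 29.3 and 30.4 RPKM in ko1 to ko5, against 26.5, 27.1, 29.6 and 29.1 RPKM in wt1 to wt4. The ranges overlapped except for ko5 at the top and wt1 at the bottom, with a log2 fold change of 0.03 as deposited and -0.10 with centring. It was -0.16 with quantile normalization (adjusted p = 0.035). Ehhadh, the peroxisomal bifunctional enzyme and a classical PPAR-alpha target in liver, was low at 1.58 ± 0.284 RPKM in knock-out muscle and 1.82 ± 0.320 in wild-type muscle (adjusted p = 0.27, and 0.039 with quantile normalization).

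Beyond the members, 36 other beta-oxidation enzymes were measured, of which 12 rose and 10 fell (7 and 16 with centring), with a median of 0.06. Over all genes tested, 37.0% were higher and 14.8% lower (25.1% and 24.9% with centring). The log2 fold changes of these enzymes ran from -0.60 to 0.98, a wider span than that of the members. This list held both mitochondrial and peroxisomal enzymes and those of branched-chain and odd-chain breakdown. Acot9, a mitochondrial acyl-CoA thioesterase, averaged 7.51 ± 0.616 RPKM in knock-out muscle and 3.76 ± 0.0639 in wild-type muscle (log2 fold change 0.98, adjusted p = 5.4e-07). Hsd17b10, a dehydrogenase of short and branched chains that also processes mitochondrial RNA, averaged 39.9 ± 3.14 in knock-out and 25.4 ± 0.360 RPKM in wild-type muscle (log2 fold change 0.65). Acad12 averaged 11.4 and 7.05 RPKM, and Ech1, a dienoyl-CoA isomerase and the most abundant of the list, 125 ± 5.14 in knock-out and 94.7 ± 8.19 RPKM in wild-type muscle, in knock-out muscle and the wild type. Pcca, a subunit of propionyl-CoA carboxylase for odd chains and amino acids, fell to 9.08 ± 0.368 RPKM in knock-out muscle, against 13.8 ± 0.815 in wild-type muscle (log2 fold change -0.60). Eci1, the mitochondrial isomerase beside Eci2, was named after its values were seen and fell to 37.7 ± 3.09 RPKM, against 43.6 ± 4.26 in wild-type muscle (log2 fold change -0.21, adjusted p = 0.042).

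Electron transfer from the acyl-CoA dehydrogenases gave no call as deposited (1, Etfa, had an unadjusted p below 0.05) and 2 with centring. Etfa, the alpha subunit of the electron transfer flavoprotein, had 49.6, 50.2, 53.0, 49.6 and 50.4 RPKM in ko1 to ko5, against 54.0, 53.1, 57.7 and 53.2 RPKM in wt1 to wt4. All knock-out values lay below all wild-type values, by little, with a log2 fold change of -0.11 (adjusted p = 0.068). The adjusted p was 0.045 without ko3, and 0.084 to 0.20 with any other library left out. With centring the log2 fold change was -0.23 (95% interval -0.34 to -0.13, adjusted p = 0.0019). Etfb, the beta subunit, had 115, 126, 101, 103 and 101 RPKM in ko1 to ko5, against 111, 98.2, 111 and 98.6 RPKM in wt1 to wt4. Its groups overlapped, with a log2 fold change of 0.06, or -0.07 with centring, and within a library it was 1.91 to 2.51 times the level of Etfa in knock-out muscle and 1.85 to 2.05 times in wild-type muscle.

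Etfdh, the oxidoreductase that hands the electrons to ubiquinone, had 38.4, 38.9, 42.0, 39.97 and 41.7 RPKM in ko1 to ko5, against 45.7, 37.9, 41.7 and 40.7 RPKM in wt1 to wt4. The groups overlapped, and the log2 fold change was -0.04 (adjusted p = 0.55), or -0.17 with centring (adjusted p = 0.041). That call ended when any of 6 libraries was left out of the centred values, for example at an adjusted p of 0.13 without wt1.

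Control genes and side branches had 1 call of 5 as deposited. Mlycd, malonyl-CoA decarboxylase, removes the malonyl-CoA that inhibits carnitine palmitoyltransferase, and had 36.3, 43.3, 34.8, 34.6 and 32.0 RPKM in ko1 to ko5, against 35.2, 24.4, 25.4 and 26.8 RPKM in wt1 to wt4. The library wt1 lay within knock-out muscle range and the other wild-type libraries below it. The log2 fold change was 0.38 (95% interval 0.14 to 0.62, adjusted p = 0.013), or 0.25 with centring (adjusted p = 0.081). Acacb, the acetyl-CoA carboxylase that makes malonyl-CoA at the mitochondrion, was named after its values were seen and fell to 28.3 ± 2.51 RPKM in knock-out muscle, against 32.3 ± 1.97 in wild-type muscle (log2 fold change -0.20, adjusted p = 0.038, and -0.32 with centring). The level of Mlycd was 1.12 to 1.40 times that of Acacb in knock-out muscle and 0.758 to 1.02 times in wild-type muscle, without overlap and without a test.

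Ppara, the PPAR of liver and oxidative tissues, averaged 1.73 ± 0.449 RPKM in knock-out muscle and 1.98 ± 0.289 in wild-type muscle (adjusted p = 0.30), and ko5 (2.48) was above all other libraries. Without ko5 its log2 fold change was -0.34 (adjusted p = 0.047), and the adjusted p was 0.20 to 0.55 with any other library left out. Ppard, the main PPAR of skeletal muscle, averaged 6.04 ± 0.428 in knock-out and 6.25 ± 0.430 RPKM in wild-type muscle (log2 fold change -0.05, 95% interval -0.21 to 0.11). Ucp3, the uncoupling protein of muscle, had 51.5, 79.4, 58.2, 88.8 and 88.7 RPKM in ko1 to ko5, against 81.9, 68.7, 52.7 and 77.7 RPKM in wt1 to wt4. It was widely spread in both genotypes, with a log2 fold change of 0.05 (95% interval -0.34 to 0.44), or -0.08 with centring. Acot2, a mitochondrial acyl-CoA thioesterase, averaged 3.85 ± 0.494 RPKM in knock-out muscle and 4.67 ± 1.55 in wild-type muscle, with wt1 (6.73) above all others (adjusted p = 0.31). Its near-copy Acot1 was at 0.322 ± 0.0997 RPKM in knock-out muscle and 0.137 ± 0.0802 in wild-type muscle, and reads may be divided between them.

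Partners, coactivators and other targets of the PPARs were lower more often than higher: 9 of 23 measured fell and 4 rose (12 and 4 with centring), with a median of -0.13. Of all genes tested, 14.8% were lower and 37.0% higher (24.9% and 25.1% with centring). Med1, a subunit of the Mediator complex, averaged 7.05 ± 0.357 RPKM in knock-out muscle and 5.22 ± 0.438 in wild-type muscle (log2 fold change 0.43). Ncoa1, a receptor coactivator, fell to 3.45 ± 0.430 RPKM, against 4.67 ± 0.402 in wild-type muscle, and Rxrg, a partner receptor of PPARs in muscle, to 24.5 ± 1.47, against 30.6 ± 3.20 in wild-type muscle. Klf15, a factor for lipid and amino acid use, fell to 7.08 ± 1.34 RPKM, against 11.0 ± 1.74 in wild-type muscle. Txnip, the most abundant of the list and a protein that restrains glucose uptake, rose to 227 ± 35.7 RPKM, against 153 ± 45.5 in wild-type muscle (adjusted p = 0.015). Ppargc1a, the coactivator PGC-1-alpha, was named after its values were seen and had 4.23, 4.13, 5.30, 4.26 and 5.46 RPKM in ko1 to ko5, against 6.35, 6.06, 6.11 and 5.71 RPKM in wt1 to wt4. It was lower in every knock-out library than in any wild-type library (log2 fold change -0.38, adjusted p = 0.0055, and -0.50 with centring).

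Fatty acid synthesis, the opposing pathway, was also measured. Of 13 genes measured, 6 fell and 1 rose (7 and 1 with centring), with a median of -0.38. The shares of all genes were 14.8% lower and 37.0% higher (24.9% and 25.1% with centring). Srebf1, the master factor of lipid synthesis, fell to 4.42 ± 0.540 RPKM, against 13.1 ± 0.238 in wild-type muscle (log2 fold change -1.55, adjusted p = 6.3e-08). Me1, malic enzyme, fell to 41.1 ± 2.28 RPKM, against 71.8 ± 8.35 in wild-type muscle, and Scd1, stearoyl-CoA desaturase, to 24.9 ± 6.31, against 56.8 ± 14.6 in wild-type muscle. Mid1ip1, an activator of acetyl-CoA carboxylase, was the gene that rose, to 33.0 ± 2.13 RPKM, against 15.4 ± 3.67 in wild-type muscle. Among adipocyte markers, 6 of 11 were lower and none higher (8 and 0 with centring), with sums of 832 to 910 RPKM in knock-out muscle and 757 to 1335 in wild-type muscle. Sncg, Lep, Cidec and Pparg had the smallest p-values there, with log2 fold changes of -0.81, -1.76, -0.79 and -0.39, and no adipocyte marker was at 0 in every library. The list did not go one way: Cfd averaged 52.5 ± 14.1 RPKM in knock-out and 39.6 ± 28.4 RPKM in wild-type muscle (adjusted p = 0.18), and Retn 4.40 ± 0.593 in knock-out and 3.396 ± 1.80 RPKM in wild-type muscle (adjusted p = 0.15), both named after their values were seen. Car3, the most abundant, averaged 638 ± 30.4 in knock-out and 699 ± 221 RPKM in wild-type muscle (adjusted p = 0.69). Their part in these results was not tested.

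Lipid droplet and triglyceride genes were higher in 8 and lower in 3 of 21 measured (6 and 5 with centring), with a median of 0.10. Those shares lie near the 37.0% higher and 14.8% lower of all genes (25.1% and 24.9% with centring). Plin3 and Plin2, coat proteins of lipid droplets, averaged 11.6 ± 1.75 and 13.4 ± 1.12 RPKM in knock-out muscle and 5.56 ± 1.67 and 9.83 ± 1.04 RPKM in wild-type muscle. Mgll, monoglyceride lipase, averaged 9.53 ± 1.05 in knock-out and 7.11 ± 0.594 RPKM in wild-type muscle. Fitm1, a droplet-forming membrane protein and the most abundant of the list, averaged 118 ± 11.8 in knock-out and 103 ± 6.38 RPKM in wild-type muscle (adjusted p = 0.047, and 0.48 with centring). Mgat1, also past the threshold at 14.4 RPKM in knock-out and 11.0 RPKM in wild-type muscle, makes sugar chains of glycoproteins and does not belong to triglyceride synthesis. Without it, 7 of 20 were higher and 3 lower (5 and 5 with centring), counted so after the values were seen. In the list of ketone body use, 1 of 6 genes rose (Slc16a1, a monocarboxylate transporter, 10.6 and 8.05 RPKM, adjusted p = 0.076 with centring) and 1 fell (Acat1, acetoacetyl-CoA thiolase, 39.3 and 44.7 RPKM), and Oxct1, the most abundant, averaged 72.5 and 72.3 RPKM, in knock-out muscle and the wild type.

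Slow-twitch fibre genes, whose fibres are rich in this pathway, were also set beside the members. Of 12 measured, 11 were higher and none lower (10 and 0 with centring), with a median log2 fold change of 1.21, against 0.06 for the 31 fatty acid genes. Among all genes tested, 37.0% were higher and 14.8% lower (25.1% and 24.9% with centring). The libraries varied widely: the mean log2 level of the list ran from 5.17 to 6.18 in knock-out muscle and from 3.52 to 5.14 in wild-type muscle. With centring, wt1 (5.24) lay above ko1 (5.16). Fhl1 averaged 479 ± 69.9 RPKM in knock-out muscle and 177 ± 62.5 in wild-type muscle, Myoz2 33.9 ± 5.48 in knock-out and 16.2 ± 4.07 in wild-type muscle, Atp2a2, the slow calcium pump, 31.3 ± 5.56 in knock-out and 14.4 ± 5.22 in wild-type muscle, and Tnnt1, slow troponin T, 57.3 ± 19.5 in knock-out and 14.2 ± 9.39 in wild-type muscle. Mb, myoglobin, the oxygen store of oxidative fibres and the most abundant of the list, was the exception at 926 ± 61.8 in knock-out and 869 ± 136 RPKM in wild-type muscle (adjusted p = 0.41).

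Among mitochondrial genes outside fatty acid oxidation, 7 of 32 were higher and 3 lower (3 and 9 with centring), their median was 0.06, and their fold changes ran from -0.27 to 0.37. Beside them, 37.0% of all genes were higher and 14.8% lower (25.1% and 24.9% with centring). Atp5o, Cox5b and Cox6c, subunits of ATP synthase and cytochrome c oxidase, averaged 268, 240 and 234 RPKM in knock-out muscle and 212, 186 and 185 RPKM in wild-type muscle. Hspd1, the mitochondrial chaperonin, fell to 43.8 ± 2.61 RPKM, against 52.7 ± 0.947 in wild-type muscle. Slc25a4, the carrier of ADP and ATP, averaged 2303 ± 177 in knock-out and 2314 ± 81.5 RPKM in wild-type muscle (adjusted p = 0.92). The difference between lists was not tested, and several genes stand in 2 lists.

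**Figure D4:**
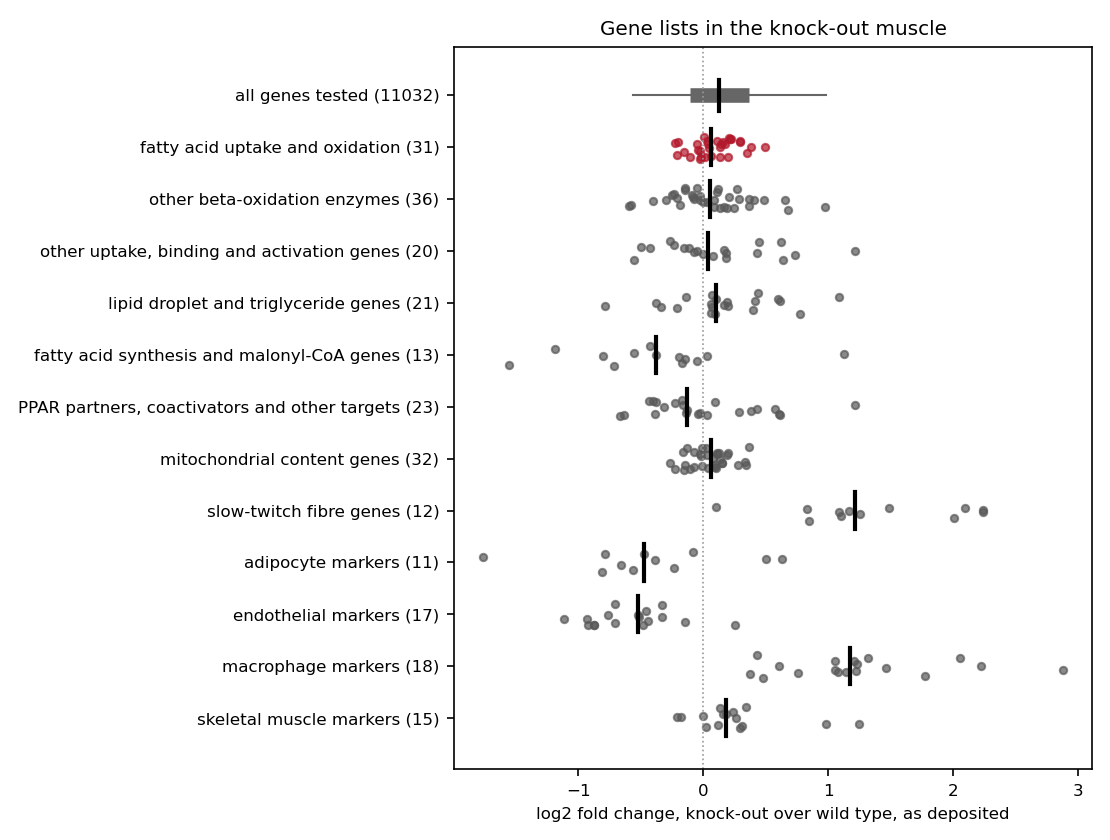
Log2 fold change, knock-out over wild type, of each measured gene (points) in the fatty acid genes (red) and in context lists (grey), with the number measured in brackets and black lines at the medians; for all genes tested the thick bar spans the 25th to 75th percentile and the thin line the 5th to 95th. The members lie between -0.23 and 0.49 around a median of 0.06, while slow-twitch fibre genes centre on 1.21 and fatty acid synthesis genes on -0.38.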

How the data were processed

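Total RNA from white gastrocnemius was sequenced from 5 knock-out and 4 wild-type libraries (Trizol extraction and an Illumina TruSeq kit, per the labels' protocols). The authors deposited RPKM values, which scale reads to transcript length and to the reads mapped, with RefSeq transcripts in rows and each library in its own column. The submitters' processing notes name TopHat 1.3.2, Partek 6.6 and Bowtie 0.12.7.0 and the mm9 build. What each did, any filter and the use of strand are not stated there.

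The 23665 lines were summed to 18062 genes. Of 37 date-like symbols, 36 were restored through the accession. Of 288 list symbols, 287 were found, 1 of them by accession. Transcript lengths came from GENCODE transcripts of GRCm38 and served only to estimate reads, which cover counting error alone. Genes with a mean of at least 0.5 RPKM (11032, all 31 members among them) entered limma 3.58.1 (R 4.3.3) as log2(RPKM + 0.1) (eBayes with trend, two-sided, Benjamini-Hochberg over all genes, threshold 0.05). Fold changes are on that scale, which understates those of low genes. The step was tested on simulated data. Tables and plots used Python 3.11.15, pandas 2.3.3, numpy 2.4.6 and matplotlib 3.10.9.

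The members and gene lists were chosen with earlier results of these data known, so lists are described by counts and medians without a test. Values in every library are given for members with a called log2 change of at least 0.5 (there were none), for members whose call or direction differed between values as deposited and centred values, and for Acaa2, Lpl, Hadha and the wild type of Fabp3, which were added after the values were seen. Of each context list the text names up to 4 called genes with the smallest p and the most abundant gene, and any other gene is named as chosen later. The alternatives were centring, quantile normalization, pseudocounts of 1 and 0.01, no filter, a filter of 2 RPKM, the highest transcript per gene, limma without trend and leaving out each library. Leaving out libraries from centred values, and leaving Mgat1 out of its list, were added after the data were seen.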

Additional observations from a re-analysis of the deposited data

Results flagged for a closer look

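In 5 of 62 groups of libraries, 1 library stood apart from the others of its genotype, and chance alone gives about 1 in 20. The groups share the same 9 libraries and are not independent, so that rate is only a rough guide. Cpt2 was at 20.28 RPKM in ko2, above the other knock-out libraries (17.3 to 18.0). Etfa was at 52.95 RPKM in ko3, above the other knock-out libraries. Acsl1 (39.03 RPKM) and Acadl (65.94 RPKM) were lowest in wt2 among the wild-type libraries. Eci2 was at 34.49 RPKM in wt1, above the other wild-type libraries (27.1 to 27.6).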

How the results depend on the processing

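With centred libraries 1 member was higher and 3 lower, and with quantile normalization 1 was higher and 8 lower, against 8 and 0 as deposited. Under quantile normalization the higher gene was Acaa2, and the lower genes were Cpt1b, Cpt2, Acadm, Echs1, Decr1, Ehhadh, Etfa and Etfdh. Without the filter 1 was lower. Leaving out each library gave 5 to 9 higher and 0 to 1 lower (5 higher without wt2), and from centred values 1 to 5 higher and 2 to 5 lower. Shares of all genes for the fits without a library are not given here. Over all genes 2742 were lower with centring, and 2644 were higher and 3056 lower with quantile normalization. With centring, higher and lower calls were 7 and 16 for other beta-oxidation enzymes, 3 and 9 for mitochondrial genes and 2 and 2 for skeletal muscle markers, lower calls were 5 for lipid droplet genes, and higher calls were 0 for ketone body use. The log2 fold change turned negative with centring for Slc22a5 (-0.089), Cpt1b (-0.11), Acadm (-0.12), Acads (-0.016), Decr1 (-0.10), Etfb (-0.066) and Ucp3 (-0.080). With quantile normalization it was negative for Fabp3 (-0.079), Slc22a5 (-0.10), Cpt1b (-0.19), Slc25a20 (-0.055), Crat (-0.097), Acadvl (-0.059), Acadl (-0.020), Acadm (-0.23), Acads (-0.085), Hadha (-0.065), Hadhb (-0.062), Decr1 (-0.16), Etfb (-0.16) and Ucp3 (-0.16). Leaving out libraries gave -0.11 to 0.044 for Lpl, -0.14 to 0.020 for Acsl1, -0.010 to 0.087 for Slc22a5, -0.029 to 0.065 for Cpt1b, -0.029 to 0.035 for Acadm, -0.044 to 0.023 for Echs1, -0.087 to 0.0027 for Etfdh and -0.084 to 0.16 for Ucp3. The cause was not tested. Of 525 member values under other settings, 441 kept direction and side of the threshold. Acaa2, Acot2, Cpt1a and Ppard did so in every setting. With the highest transcript Cd36 had an adjusted p of 0.33. No paired analysis was possible because the labels link no knock-out library to a wild-type library. By the estimated reads of the lowest library, depth limits Ehhadh (66), Ppara (93) and Acot2 (124) most.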
